A study of Mus musculus with 4 samples.

Results

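The subunits of the oxidative phosphorylation system that are encoded in the nucleus were followed through progenitors and neurons of the mouse medial ganglionic eminence (MGE), where cortical interneurons are born in the ventral forebrain. Members were taken by symbol. For complex I these were Nduf symbols with a, b, c, s or v and then a number. Others were Sdha to Sdhd of complex II, Uqcr genes of complex III, Cox4 to Cox8 of complex IV and Atp5 genes of complex V. Assembly factors were not taken, nor were subunit genes with other symbols, such as Ndufab1 and Cyc1. Cyc1 is counted with the carriers further on. Pseudogenes were left out, and 84 of the 32285 genes of the matrices remained. These were 37 genes of complex I, 4 of complex II, 8 of complex III, 18 of complex IV and 17 of complex V. Ndufa4 is counted with complex I by its symbol, although its protein is now assigned to complex IV.

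Single-cell RNA sequencing with 10x Genomics chemistry was performed at e14.5 on mice of a mixed C57/BL6 and ICR strain. There were 2 libraries labelled St18(-/-), called null, and 2 labelled WT, each from pooled MGE of genotyped littermates of heterozygous parents. The null is whole-animal, made with a conditional St18 allele and the germline E2a-Cre driver, and how many embryos, and of which sex, went into a pool was not stated. The study asks how loss of the zinc finger factor St18 changes MGE progenitors and neurons.

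Oxidative phosphorylation couples electron flow along the inner mitochondrial membrane to ATP synthesis. Complexes I and II pass electrons from NADH and succinate to ubiquinone, complex III passes them to cytochrome c and complex IV to oxygen, and the proton gradient that I, III and IV build drives ATP synthase, complex V. Mitochondrial DNA encodes core subunits of all of these but complex II, and the nucleus encodes the rest, many of them small accessory proteins. Neural progenitors are known for high glycolysis, and neurons for their reliance on respiration.

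The libraries held 70991150 to 92984713 unique molecular identifiers (UMIs). Cells were barcodes with at least 3000 UMIs and at most 10% of them from mitochondrial genes, so the cells, though not the genes, were chosen by measured values. These cuts left 3878 to 6631 cells per library before doublets were removed, and 4 to 9 barcodes were shared by any pair of libraries. Cells were clustered without the members and called neurons (2163 to 3336 per library) or progenitors (1530 to 2860) from markers. MGE markers were present, with Nkx2-1 at 276 to 450 counts per 1000000 UMIs (CPM) in the sums of each library and class. St18 went against the label in the library labelled null replicate 2: in neurons it had 25.01 and 77.7 CPM in null replicates 1 and 2 and 43.9 and 59.3 CPM in the WT libraries. The null allele lacks internal exons and can still be transcribed, and counts per gene do not show which exons were read, so these levels do not check the deletion and do not show that the label is wrong. Cells typed female by Xist made up 32.0% and 61.4% of the null libraries and 0% of both WT libraries. The main genotype counts and medians over all members, and the medians of complexes and lists, are therefore also given without each null library. Counts and medians over all members are also given within male cells.

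At the cut of 3000 UMIs, the 100 barcodes just inside had 2.33%, 2.32%, 2.78% and 2.85% of their UMIs from members (null replicates 1 and 2, then WT replicates 1 and 2), and the 100 just outside had 2.36%, 2.37%, 2.68% and 2.84%. At the mitochondrial cut, barcodes just inside had 2.07%, 2.16%, 2.69% and 2.58% and those outside, up to 100 per library, had 2.12%, 2.14%, 2.23% and 2.28%. In all, this cut left out 185 and 489 of the 6816 and 4367 barcodes with at least 3000 UMIs in null replicates 1 and 2. In WT it left out only 67 and 86 of 4579 and 4097. The barcodes measured outside reached 30.5% and 24.8% mitochondrial UMIs in WT, against 12.2% and 11.3% in null. The WT values there are thus not limited to the edge of the cut.

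Promoter sequence was looked at because the members are known targets of shared factors, among them NRF1, the ETS factor GABP and YY1. RefSeq windows of 300 bases (GRCm38.p6, 250 before and 50 after the start) were found for 67 of the 84 members. They were searched on both strands for the NRF1 motif (GCGC, any base, then TGCGC), the ETS motif (CCGGAAG) and the YY1 motif (AAGATGG followed by CGG), none of which contains another. The NRF1 letters were in windows of 17 members (25.4%, against 5.19% of all 27025 genes with a window). The ETS letters were likewise in 17 (25.4%, against 9.93%) and the YY1 letters in 5 (7.46%, against 0.995%). At least 1 of these motifs was found in 33 members (49.3%, against 14.6%). They were found in 21 of the 38 members with a window that were lower in neurons, in 6 of the 11 that were higher and in 6 of the 18 without a call, so members of each kind held them. The 250 bases upstream of the RefSeq start are shown, 5′ to 3′ on the strand of the gene, for the members with a window whose class difference is described library by library, with any of these motifs in capitals. This start can differ from that of the gene spans given further on, which are from GENCODE. For Ndufa12, Atp5g2 and Cox7a2l the bases shown lie within those spans, and for Sdha in part.
Ndufa12 (chr10:94198785-94199034, plus strand): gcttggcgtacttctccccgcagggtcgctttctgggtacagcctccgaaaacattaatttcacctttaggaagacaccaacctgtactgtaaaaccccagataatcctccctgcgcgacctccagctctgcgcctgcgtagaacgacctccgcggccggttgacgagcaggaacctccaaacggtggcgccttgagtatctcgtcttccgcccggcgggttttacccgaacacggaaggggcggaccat
Ndufb2 (chr6:39592315-39592564, plus strand): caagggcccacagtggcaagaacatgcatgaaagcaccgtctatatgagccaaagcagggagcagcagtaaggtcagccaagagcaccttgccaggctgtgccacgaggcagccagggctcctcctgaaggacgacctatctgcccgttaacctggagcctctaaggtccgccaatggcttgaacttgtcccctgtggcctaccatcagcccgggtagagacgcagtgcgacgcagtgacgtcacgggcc
Uqcr10 (chr11:4704345-4704594, minus strand): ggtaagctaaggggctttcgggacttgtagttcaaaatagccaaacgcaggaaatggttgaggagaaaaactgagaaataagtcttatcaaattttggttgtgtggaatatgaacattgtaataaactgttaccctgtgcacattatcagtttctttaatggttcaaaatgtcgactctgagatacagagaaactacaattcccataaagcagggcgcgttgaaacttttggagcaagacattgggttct
Sdha (chr13:74350241-74350490, minus strand): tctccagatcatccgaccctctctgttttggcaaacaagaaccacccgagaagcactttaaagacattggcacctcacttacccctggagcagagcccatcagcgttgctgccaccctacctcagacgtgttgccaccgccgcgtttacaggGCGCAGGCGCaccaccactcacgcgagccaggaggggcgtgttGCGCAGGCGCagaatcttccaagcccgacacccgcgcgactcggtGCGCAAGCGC
Sdhd (chr9:50603850-50604099, minus strand): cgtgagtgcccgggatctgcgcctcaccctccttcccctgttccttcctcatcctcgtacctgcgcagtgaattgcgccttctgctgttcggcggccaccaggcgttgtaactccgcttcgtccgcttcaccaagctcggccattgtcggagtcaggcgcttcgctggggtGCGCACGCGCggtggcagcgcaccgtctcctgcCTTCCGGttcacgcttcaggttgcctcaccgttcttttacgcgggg
Atp5g2 (chr15:102671048-102671297, minus strand): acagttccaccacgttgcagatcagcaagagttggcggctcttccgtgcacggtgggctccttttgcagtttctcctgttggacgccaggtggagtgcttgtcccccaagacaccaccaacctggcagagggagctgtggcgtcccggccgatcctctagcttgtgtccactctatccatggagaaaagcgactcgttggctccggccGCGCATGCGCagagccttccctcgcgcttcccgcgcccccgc
Cox6b1 (chr7:30626115-30626364, minus strand): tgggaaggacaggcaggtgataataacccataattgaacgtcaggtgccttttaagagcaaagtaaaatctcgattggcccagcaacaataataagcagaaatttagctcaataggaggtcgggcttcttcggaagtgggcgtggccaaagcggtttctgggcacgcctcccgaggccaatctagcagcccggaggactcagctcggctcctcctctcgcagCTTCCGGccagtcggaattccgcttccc
Cox6b2 (chr7:4753095-4753344, minus strand): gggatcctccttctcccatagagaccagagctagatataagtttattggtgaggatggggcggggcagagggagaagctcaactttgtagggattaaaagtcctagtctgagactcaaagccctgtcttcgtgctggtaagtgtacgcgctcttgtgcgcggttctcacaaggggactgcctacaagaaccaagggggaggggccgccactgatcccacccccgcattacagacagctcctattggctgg
Cox7a2l (chr17:83514334-83514583, minus strand): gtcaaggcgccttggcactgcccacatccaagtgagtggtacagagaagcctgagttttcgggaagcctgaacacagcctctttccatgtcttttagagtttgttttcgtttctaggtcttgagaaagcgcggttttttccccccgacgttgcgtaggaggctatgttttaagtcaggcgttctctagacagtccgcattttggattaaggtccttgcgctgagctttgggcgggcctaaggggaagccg
Sdha held the NRF1 letters at 3 places, and Sdhd held NRF1 and ETS letters. Atp5g2 had an NRF1 match and Cox6b1 an ETS match, while Cox6b2, Cox7a2l, Ndufa12, Ndufb2 and Uqcr10 had none of these letters in the window. Among the members with no window in the table were Ndufs1, Ndufa2, Ndufa4l2, Ndufb9, Sdhc, Uqcrb, Uqcrc2, Uqcrq, Cox4i1, Cox4i2, Cox6a2, Cox6c, Cox8c, Atp5a1, Atp5f1 and Atp5mpl.

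Together the members gave nearly the same share of UMIs in progenitors and in neurons. The share was 2.26% in progenitors and 2.22% in neurons of null replicate 1, 1.97% and 1.90% in null replicate 2, 2.65% and 2.62% in WT replicate 1, and 2.65% and 2.63% in WT replicate 2. Neurons had 0.961 to 0.994 times the share of progenitors of the same library. The libraries differed more than the classes did, and both null libraries were below both WT libraries in each class. Counting error was small, with an exact 95% interval of 2.25% to 2.27% for the progenitors of null replicate 1. Complex I took 0.617% to 0.879% of UMIs, complex V 0.617% to 0.850%, complex IV 0.459% to 0.665%, complex III 0.170% to 0.231% and complex II 0.0345% to 0.0472%. Complex II and complex V had the lower share in neurons in all 4 libraries, at 0.847 to 0.901 times and 0.932 to 0.968 times the progenitor share, while complexes I, III and IV lay between 0.965 and 1.03 times.

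**Figure D1:**
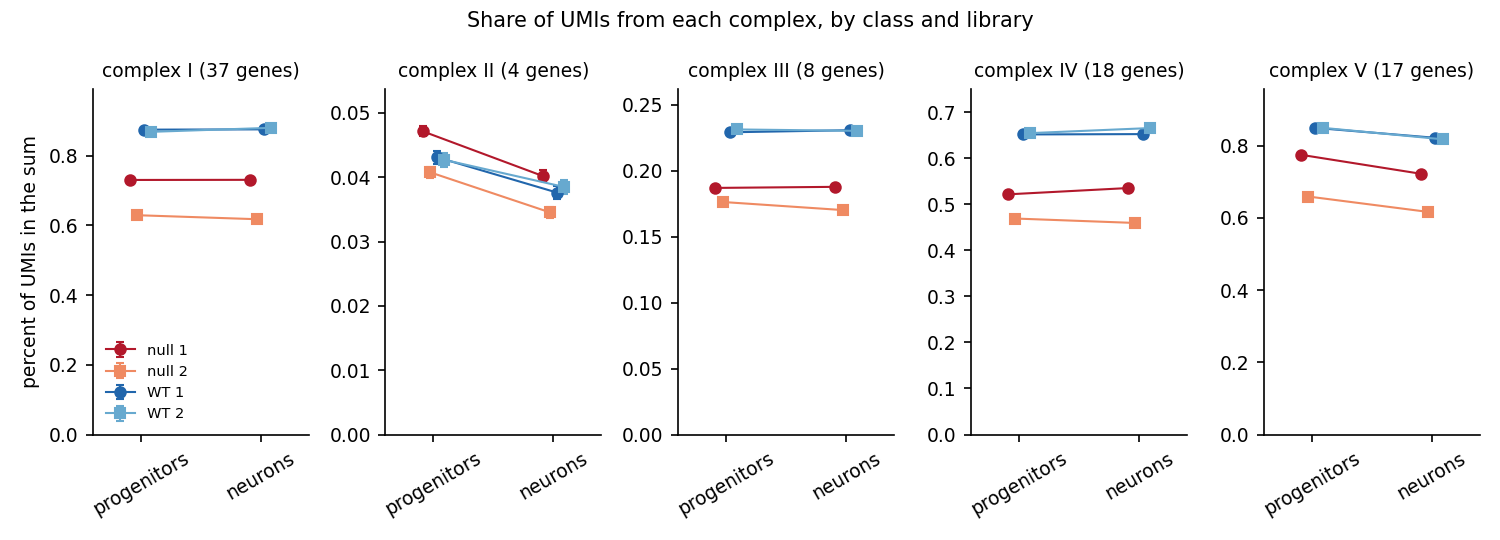
Percent of all UMIs (vertical axes, from 0) that came from the members of each complex in progenitors and neurons, with a line for each of the 4 libraries and bars for exact 95% binomial intervals. Complex II and complex V were lower in neurons in every library, and the null libraries lay below both WT libraries for complexes I, III, IV and V.

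Neurons were compared with progenitors of the same libraries to ask whether the system changes as cells leave the cycle, with library as a term in edgeR's quasi-likelihood fit of the 8 sums. Of the 84 members, 79 had enough counts to be tested, and 43 of them were lower and 13 higher in neurons at an adjusted p of 0.05. Differences between these classes were common, since 39.4% of all 14383 genes tested were lower and 40.2% higher. The members thus had a larger part lower (54.4%) and a smaller part higher (16.5%) than all genes tested, and fewer called in all, 56 of 79 (70.9%) against 79.6%. By CPM, 30 members were lower in neurons in all 4 libraries (38.0%, against 37.2% of all genes) and 26 higher in all 4 (32.9%, against 44.7%). Their changes were small: the median log2 change, neurons over progenitors, was -0.10 against 0.01 over all genes, and 3 members tested had under 20 CPM. When libraries were scaled by their totals, 30 members were lower (all genes, 36.5%) and 23 higher (43.7%), and the median was -0.035 against 0.07 over all genes. Without the library term, 6 were lower (all genes, 31.7%) and 1 higher (32.4%). In G1 cells alone, a setting added after seeing the data, 28 were lower (all genes, 26.6%) and 5 higher (27.1%).

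**Figure D2:**
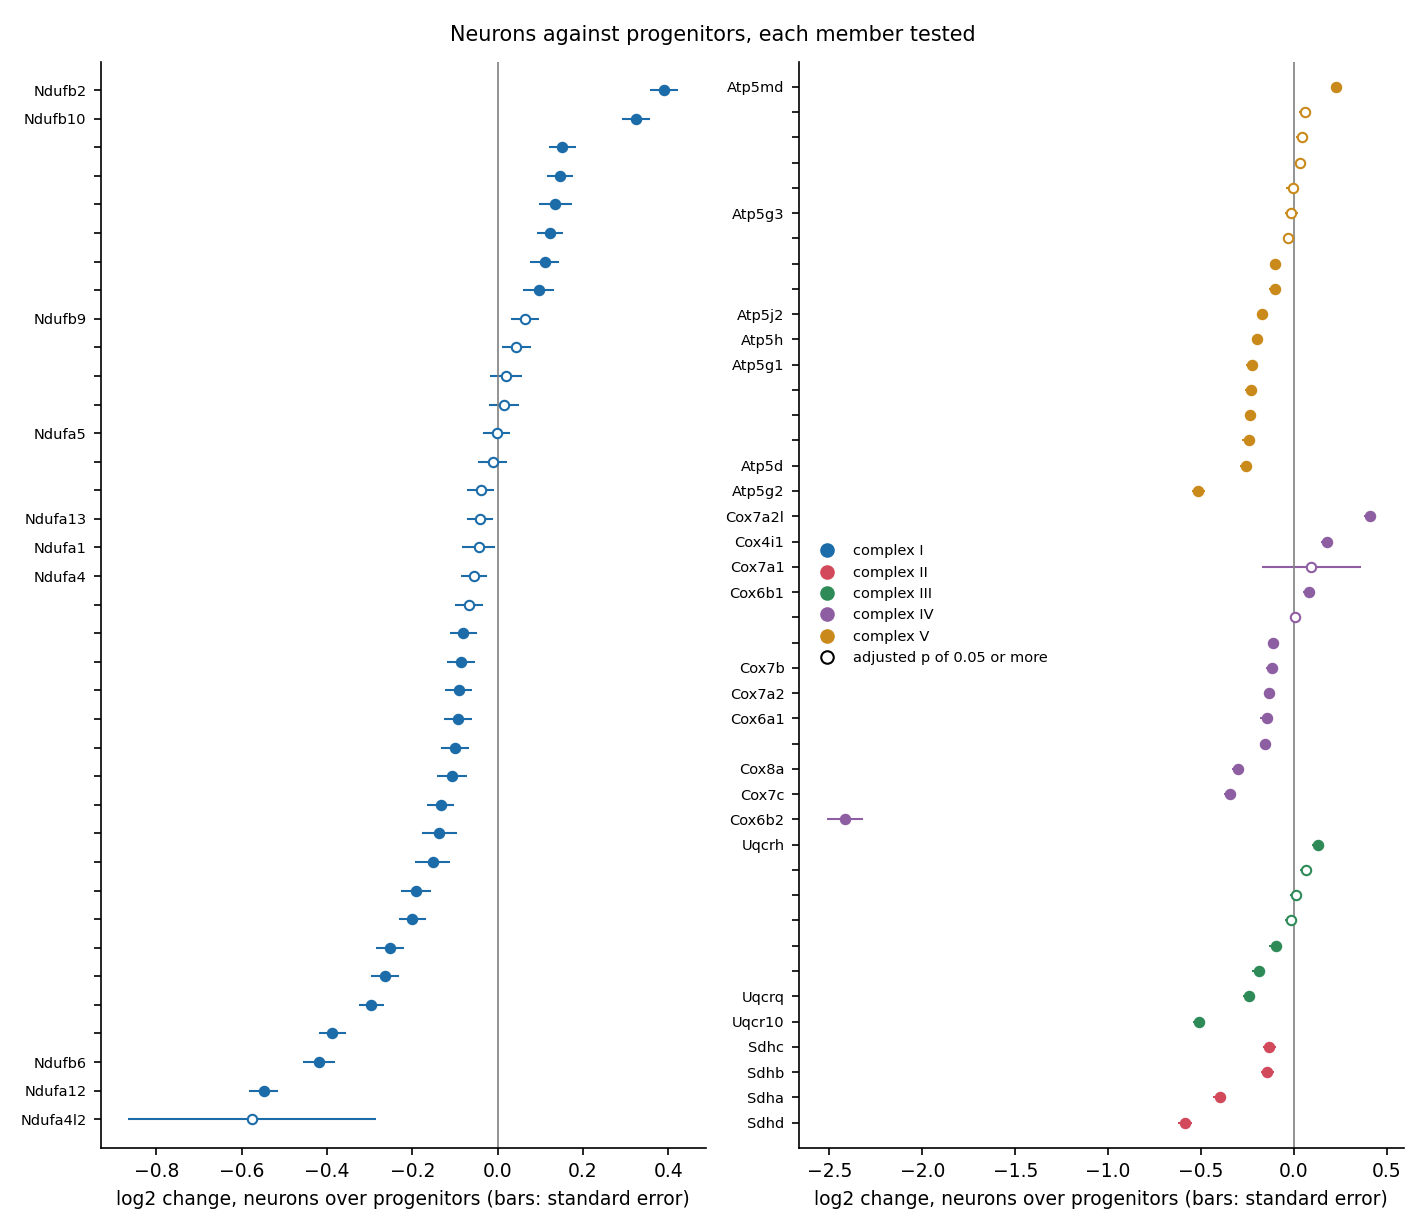
Log2 change of neurons over progenitors (horizontal axes) with its standard error for the 79 members tested, complex I on the left and the other complexes on the right, where filled points passed the adjusted p of 0.05 and the members chosen by the naming rule are labelled. Complex II lay wholly below 0, and Cox6b2, at -2.42, lay far below all other members.

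In complex I, 17 of 37 members tested were lower and 8 higher in neurons, where 39.4% and 40.2% of all genes were. Ndufa12, an accessory subunit that joins late in assembly (chr10:94198720-94221443 in GRCm38, as for all positions here), had 275, 227, 320 and 301 CPM in the progenitors of null replicates 1 and 2 and WT replicates 1 and 2, and 193, 164, 224 and 222 CPM in their neurons. It was lower in neurons in each library, by a log2 change of -0.55 ± 0.03 (SE, adjusted p = 1.04e-09). Ndufb6, a membrane arm subunit, was at -0.42 ± 0.04, and at -0.17 in G1 cells. Ndufb2, another accessory subunit of the membrane arm (chr6:39592574-39603382), had 87.4, 95.3, 124 and 134 CPM in progenitors and 118, 126, 175 and 187 CPM in neurons. It was higher in neurons in each library, at 0.39 ± 0.03 (adjusted p = 3.53e-08), and Ndufb10 was higher by 0.32 ± 0.03. Reads of Ndufb2, like those of Cox7c, Cox4i1, Atp5g2, Atp5b and Ndufa13, could also match a gene that overlaps it on the same strand, which leaves their count uncertain. In G1 cells Ndufb2 was at 0.12 and no longer passed (adjusted p = 0.115), whereas Ndufb10 stayed at 0.33. Ndufa4 and Ndufb9 had the most UMIs of the complex, at means of 582 and 418 CPM, and neither passed the test, with log2 changes of -0.05 and 0.06. Of the subunits that bind flavin or iron-sulfur clusters, Ndufs7, Ndufs8, Ndufv1 and Ndufv2 were lower in neurons and Ndufs1 higher.

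All 4 subunits of complex II, which also works in the citric acid cycle, were lower in neurons, where 39.4% of all genes were. Sdhd, a membrane anchor (chr9:50596357-50603812), had 77.4, 64.0, 80.9 and 74.1 CPM in progenitors and 53.8, 42.4, 58.2 and 53.2 CPM in neurons. The 2 classes did not overlap, and the log2 change was -0.58 ± 0.04 (adjusted p = 1.7e-09). Sdha, the flavoprotein with the catalytic site (chr13:74322254-74350280), had 103, 119, 101 and 104 CPM in progenitors and 81.3, 94.2, 80.5 and 82.3 CPM in neurons, again without overlap, at -0.40 ± 0.04 (adjusted p = 8.44e-08). These 2 also passed without the library term (adjusted p of 0.0045 and 0.0007). Sdhb, the iron-sulfur subunit, was at -0.14 ± 0.03 and Sdhc, the other anchor, at -0.13 ± 0.04, and Sdhc did not pass when libraries were scaled by totals, nor Sdhb in G1 cells (-0.13).

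Complex III had 4 of 8 members lower and 1 higher (all genes, 39.4% and 40.2%). Uqcr10, a small subunit beside the iron-sulfur protein (chr11:4701973-4704342), had 193, 216, 291 and 279 CPM in progenitors and 146, 156, 210.5 and 206 CPM in neurons, lower in each library, at -0.51 ± 0.03 (adjusted p = 1.78e-09). Uqcrq was at -0.24 ± 0.03. Uqcrh, the hinge subunit and the member of complex III with the most UMIs, was higher in neurons at 0.13 ± 0.03, but turned to -0.081 in G1 cells, without passing there. The core proteins Uqcrc1 and Uqcrc2 were at -0.10 and 0.01.

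In complex IV, 8 of 13 members tested were lower and 3 higher in neurons (all genes, 39.4% and 40.2%), and of the paralog families only Cox6b and Cox7a had more than 1 member tested. Cox6b2, the form of subunit VIb best known from testis (chr7:4751792-4753094), had 13.7, 12.4, 17.8 and 19.9 CPM in progenitors and 3.15, 2.24, 3.05 and 3.89 CPM in neurons. Every progenitor sum was above every neuron sum, and neurons were 5.34-fold lower (log2 change -2.42 ± 0.10, adjusted p = 7.86e-12). In G1 cells it was at -2.33. Its ubiquitous paralog Cox6b1 had 413, 390, 578 and 581 CPM in progenitors and 464, 419, 644 and 643 CPM in neurons, higher in each library by 0.08 ± 0.03 (adjusted p = 0.029), though it did not pass without null replicate 1 (0.06, adjusted p by edgeR of 0.130) or without WT replicate 1 (0.08, 0.0797), and was at -0.0027 in G1 cells. Erythroid cells also held Cox6b2, and erythroid markers summed to 305, 53.4, 70.6 and 1054 CPM in the progenitors of the 4 libraries and 82.6, 81.5, 113 and 84.8 CPM in their neurons. Cox6b2 was lower in neurons in each library. These markers were lower in neurons in null replicate 1 and WT replicate 2 and higher in neurons in null replicate 2 and WT replicate 1. The part of erythroid RNA in the Cox6b2 difference was not tested.

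Cox7a2l, a relative of subunit VIIa that links complexes III and IV into supercomplexes (chr17:83501918-83517330), was the member with the largest change toward neurons. It had 336, 284, 323 and 315 CPM in progenitors and 456, 395, 466 and 430 CPM in neurons. The classes did not overlap, and the log2 change was 0.41 ± 0.03 (adjusted p = 2.06e-08; 0.0144 without the library term). In G1 cells alone the difference was not seen, at -0.0020 (adjusted p = 0.973). G1 progenitors were few, at 143 to 278 per library, and came largely from clusters 8 and 15. In these, 56.5% and 31.4% of cells were called S or G2M, against 94.4% to 100% in the other progenitor clusters. Over all cells, Cox7a2l was at 414 and 419 CPM in clusters 8 and 15 and at 237 to 425 CPM in the others. The part of this in the G1 values, here and for other members, was not tested. Cox7a2, the VIIa subunit of most tissues, was lower at -0.13 ± 0.03, though not in G1 cells (-0.01), and Cox7a1, its muscle form, had 0.78 to 1.35 CPM and did not pass. Cox4i1, which binds regulatory nucleotides and had the most UMIs of all members (chr8:120668222-120674207), had 942, 644, 1000 and 996 CPM in progenitors and 1119, 754, 1186 and 1183 CPM in neurons. It was higher in neurons in each library by 0.18 ± 0.03 (adjusted p = 9.86e-05), and at -0.048 in G1 cells without passing there. Cox7c and Cox8a, small subunits of the membrane part, were lower at -0.34 and -0.30. The muscle forms Cox6a2 and Cox8b and the testis form Cox8c had no UMI in these sums, and Cox4i2, a form induced by low oxygen, and the testis form Cox7b2 had 48 and 6 UMIs in all, too few to test. Ndufa4l2, the hypoxia-induced relative of Ndufa4, had 0.52 to 2.63 CPM and did not pass.

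**Figure D3:**
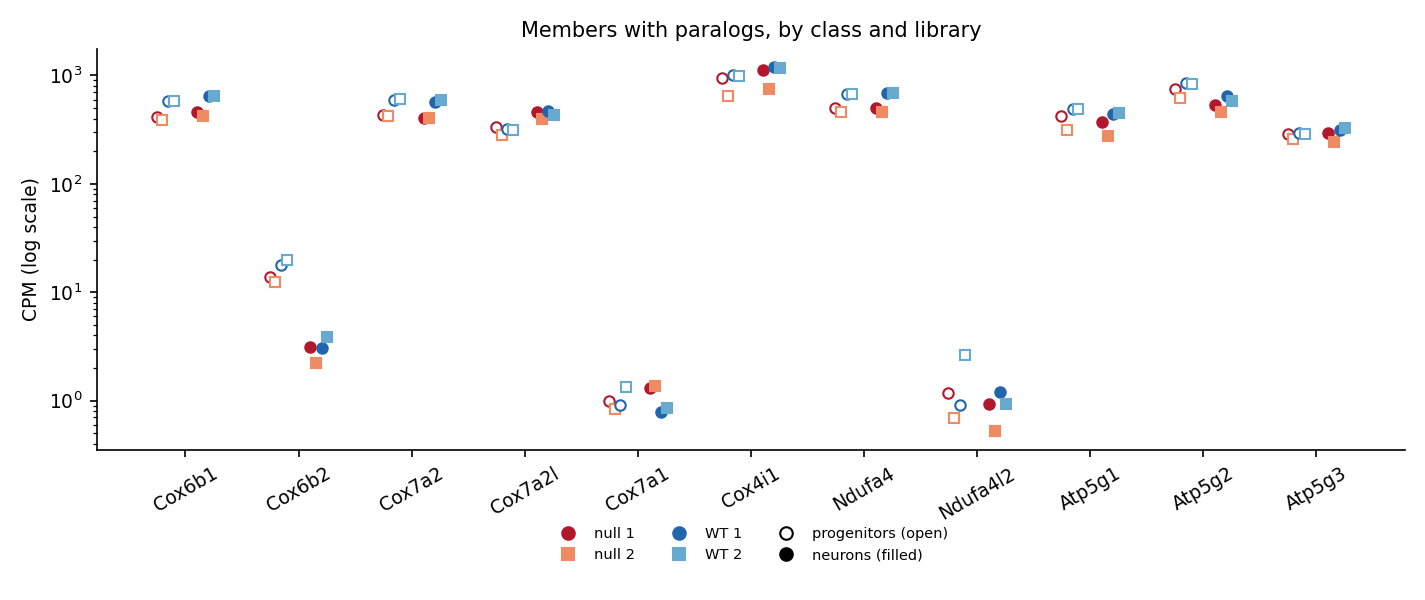
CPM (log scale) of members that have paralogs, in progenitors (open) and neurons (filled) of each library. Cox6b2 went from 12.4 to 19.9 CPM in progenitors to 2.24 to 3.89 CPM in neurons, while Cox6b1 stayed between 390 and 644 CPM.

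In complex V, 10 of 17 members were lower and 1 higher (all genes, 39.4% and 40.2%). The c ring of ATP synthase is made from 3 genes with the same mature protein. Atp5g2 (chr15:102662864-102672352) had 749, 614, 850 and 827 CPM in progenitors and 539, 460, 646 and 581 CPM in neurons, lower in each library by -0.51 ± 0.04 (adjusted p = 3.72e-09). Atp5g1 was at -0.23 ± 0.03 (adjusted p = 6.16e-06) and Atp5g3 at -0.02 ± 0.03 (adjusted p = 0.692), and in G1 cells Atp5g1, at -0.09, no longer passed. Whether the 3 changes differ from each other was not tested. Reads that match near-identical copies elsewhere in the genome could be misplaced or not counted, which leaves the levels of the Atp5g genes uncertain. Atp5h, in the peripheral stalk, was at -0.20 ± 0.03, and Atp5d, in the central stalk, at -0.26 ± 0.03. Atp5md, a small subunit involved in dimers of the synthase, was higher in neurons at 0.23 ± 0.03 and did not pass in G1 cells, at 0.10. The catalytic beta subunit Atp5b was lower at -0.24, while Atp5a1, the alpha subunit of the same hexamer, did not pass at 0.04.

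Genes around the system were counted in the same fit, in which 39.4% of all genes were lower and 40.2% higher. The mitochondrial ribosome, which translates the mitochondrially encoded subunits, had 57 of 78 genes lower and 5 higher in neurons (median log2 change -0.29), with Mrps28 at -0.99 and Mrpl13 at -0.90 against Mrpl41 at 0.47 and Mrps26 at 0.26. Glycolysis had 13 of 20 lower and 6 higher, and its median was -0.57. Ldha, which makes lactate, was 5.31-fold lower in neurons, with a mean of 35.7 ± 2.33 CPM against 182 ± 13.1 CPM in progenitors (SD, n = 4 libraries each), and Tpi1 was 2.86-fold lower. Hk1 and Pfkm, the hexokinase and phosphofructokinase of brain and muscle, were 2.18-fold and 1.64-fold higher. Of 16 genes of the citric acid cycle and pyruvate dehydrogenase, 9 were lower and 2 higher: Suclg2 was 11.5-fold lower and Fh1 1.52-fold lower, and Idh3b and Pdhb were 1.21-fold and 1.09-fold higher. The counts of assembly factors were near those shares, with 19 of 47 lower, among them Cmc2 (-1.72) and Uqcc2 (-0.47), and 18 higher, among them Ttc19 (0.92) and Surf1 (0.84).

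Of 13 carriers and energy transfer genes, 10 were lower and 2 higher, where, as for all lists of this paragraph, 39.4% and 40.2% of all genes were. The adenine nucleotide carriers went opposite ways: Slc25a4 had a mean of 437 CPM in progenitors and 712 CPM in neurons (log2 change 0.63 ± 0.03), and Slc25a5 452 and 195 CPM (-1.27 ± 0.04). Ckb, the brain creatine kinase, was at -1.58. Of 13 regulators of mitochondrial biogenesis tested, 11 were lower, with Nrf1 at -0.86 and the GABP subunit gene Gabpb1 at -0.75, and the orphan receptor gene Esrra was the 1 higher, at 0.66. Of 9 antioxidant genes 5 were lower, among them Sod1 (-0.57) and Prdx3 (-0.33), and 2 higher, Glrx2 (0.48) and Prdx5 (0.13). The cytosolic ribosome, by symbol, had 77 of 91 genes lower and 7 higher, with Rps27l at -1.16 and Rpl22l1 at -1.08 against Rps27 at 0.16. Its pattern also took in 10 S6 kinase genes, which are no ribosomal proteins, and Rps6ka5, at 0.69, is 1 of them.

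The 13 subunits encoded in mitochondrial DNA are given without a test, since their share chose the cells. Mitochondrial genes gave 3.87%, 4.26%, 3.33% and 3.39% of UMIs in progenitors (null replicates 1 and 2, then WT replicates 1 and 2) and 4.56%, 4.55%, 3.67% and 3.87% in neurons. Neurons had 1.07 to 1.18 times the progenitor share, where the nuclear members had 0.961 to 0.994 times. The catalytic subunit gene mt-Co1 had 3688, 4432, 2993 and 3061 CPM in progenitors and 4528, 4906, 3466 and 3578 CPM in neurons, higher in each library. By contrast mt-Nd1, of complex I, had 3368, 3557, 2767 and 2758 CPM in progenitors and 3255, 3098, 2439 and 2548 CPM in neurons, lower in each library, as mt-Nd5 was. The nuclear and mitochondrial shares, each summed over its genes, thus lay in opposite order between the classes and also between the genotypes. This is a description of cells chosen by the mitochondrial share. Between the classes the order did not hold for every complex or gene. Neurons had 0.982 to 1.01 times the progenitor share for complex I and 0.980 to 1.03 times for complex IV.

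Clusters, which were made without the members, are given as a description. Only neuron and progenitor clusters are counted here, and 21 of them had at least 20 cells in 3 or more libraries. Of these, all but clusters 8, 17 and 20 lay within 0.92 to 1.09 times the share of their class. That share was of the same library, and the ratio was averaged over libraries. Cluster 17, with 414 cells led by Pcp4, Mt3 and Dbi, had 2.90%, 2.92%, 3.38% and 3.55% from members, 1.34 times its class. It also had the fewest UMIs per cell of all clusters (a median of 4180) and 24.0% of UMIs from cytosolic ribosomal genes, and the part of depth in its share was not tested. Cluster 8, led by Dll1, Dll3 and cycling genes, was at 1.11 times. Its progenitor and neuron marker scores were close (0.0039 and -0.059), and its cells had a median of 5769 UMIs. The part of these in its share was not tested. Neuron cluster 20, led by Snhg11, Pfkp and Meg3, was the lowest of these 21 clusters, at 1.56% to 1.98% in 3 libraries. It also had 5.46% of UMIs from mitochondrially encoded genes, averaged over these libraries, and 33.7% of its cells were called S or G2M, and the part of these in its share was not tested. Within progenitors, G1 cells had 2.09% to 2.87% from members and G2M cells 1.92% to 2.60%, with G1 above S and S above G2M in every library.

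**Figure D4:**
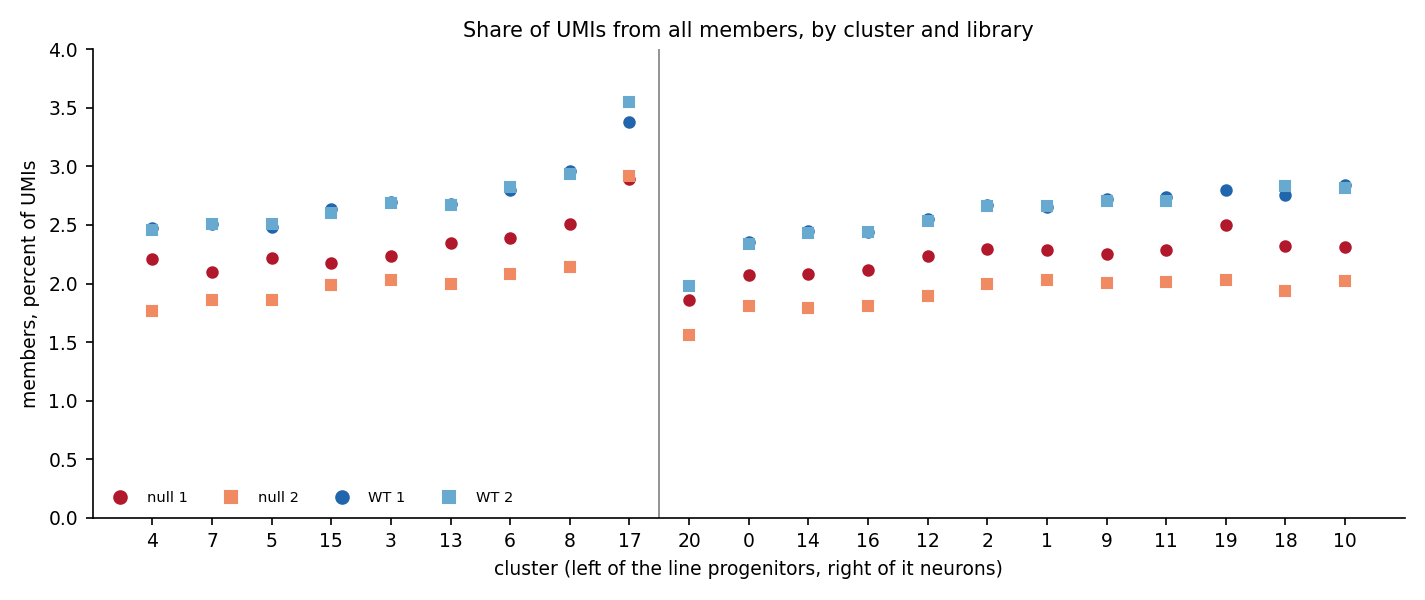
Percent of UMIs from all members in each cluster (horizontal axis, progenitor clusters left of the line and neuron clusters right of it) and library, for clusters with at least 20 cells in more than 1 library. Cluster 17 was highest and cluster 20 lowest, and in each cluster the null libraries lay below the WT libraries measured there.

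Null was compared with WT within each class, as the study's genotypes imply, by edgeR's quasi-likelihood test over the 4 libraries. Most members were lower in the null libraries, by about the same amount in both classes, but none passed the adjusted p of 0.05. By CPM, in neurons 57 of the 79 members tested were lower in both null libraries than in both WT libraries (72.2%, against 13.2% of all 13622 genes tested). In progenitors it was 54 (68.4%, against 11.2% of 13568). The reverse held for 2 members in each class, against 42.7% and 48.4% of all genes. The median log2 change, null over WT, was -0.49 in neurons and -0.52 in progenitors, against -0.01 and -0.0026 over all genes. With library totals as the scale, where all genes moved up to medians of 0.15 and 0.19, the members were at -0.34 in both classes, and 20 in neurons (all genes, 0.624%) and 11 in progenitors (0.472%) were called lower.

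No member passed in either class, where 3 genes in neurons (0.022%) and 4 in progenitors (0.0295%) passed in all. At an unadjusted p below 0.05, 54 members were lower in neurons (68.4%, against 9.93% of all genes) and 51 in progenitors (64.6%, against 10.0%). None was higher, against 7.27% and 7.52% of all genes. DESeq2 called 39 members lower in neurons (49.4%, against 1.91%) and 41 in progenitors (51.9%, against 2.23%). The result depended on the libraries. Without null replicate 2, the library with St18 above WT, 38 members were lower (all genes, 2.57%) and 1 higher (0.802%) in neurons, and 51 lower (7.0%) and 3 higher (3.65%) in progenitors, with medians of -0.30 and -0.32. Without null replicate 1, 70 and 73 members were lower (all genes, 12.9% and 18.3%), with medians of -0.66 and -0.69. In these fits the lone null library is assumed to vary as the WT libraries do. Without either WT library no member passed, and in male cells alone none passed and the medians were -0.46 and -0.52.

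The members with the smallest p were small accessory subunits, and they fell short of the threshold over all 4 libraries. Ndufa1, a complex I subunit on the X chromosome, had 77.5 and 86.6 CPM in the null libraries against 123 and 124 CPM in WT, for neurons, which did not overlap (log2 change -0.74 ± 0.11, adjusted p = 0.0733 by edgeR). Atp5j2, the f subunit of ATP synthase, had 338 and 371 CPM against 535 and 543 CPM, at -0.76 ± 0.11 with the same adjusted p by edgeR. Ndufa5, of the complex I arm that faces the matrix, had 149 and 152 CPM in the null libraries and 218 and 235 CPM in the WT libraries for neurons, and 141 and 155 CPM against 210 and 215 CPM for progenitors (log2 changes of -0.74 and -0.71, adjusted p by edgeR of 0.0733 and 0.0634). Ndufa13, also known as GRIM-19, had 253 and 258 CPM against 362 and 383 CPM in progenitors, at -0.74 ± 0.11. The null and WT libraries did not overlap for any of these 4. All 4 were at -0.66 to -0.77 in neurons without null replicate 2 and at -0.69 to -0.78 without null replicate 1. Each of these fits held 1 null library, so they give no spread between null libraries. In neurons these 4 members passed over all 4 libraries with library totals (adjusted p by edgeR of 0.0228 to 0.0270) and in DESeq2. They did not pass in neurons without either WT library (adjusted p by edgeR of 0.0869 to 0.265) or in male cells (0.127 to 0.129). Cox4i1 had 1119 and 754 CPM in the neurons of null replicates 1 and 2 against 1186 and 1183 CPM in WT, so most of its difference lay in null replicate 2, and without that library it was at -0.18.

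By complex, the median log2 change in neurons was -0.58 in complex IV, -0.57 in complex III, -0.49 in complex I, -0.44 in complex V and -0.16 in complex II, with -0.62, -0.57, -0.52, -0.48 and -0.12 in progenitors. Without null replicate 2 the medians in the same order were -0.41, -0.46, -0.31, -0.28 and -0.06 in neurons and -0.58, -0.48, -0.37, -0.29 and -0.06 in progenitors, and without null replicate 1 they lay between -0.75 and -0.60 outside complex II, which was at -0.35 and -0.32. The differences between complexes were not tested. No complex II member was lower in both null libraries. Sdhc was higher in both by CPM in each class, but at -0.10 and -0.06 on the TMM scale. Some large subunits, picked after their values were seen, lay near 0: Uqcrc1 was at 0.10 in neurons and 0.11 in progenitors, Atp5b at 0.00 and 0.07, Atp5a1 at -0.07 and -0.10, Ndufa10 at -0.06 and -0.05 and Sdha at -0.05 and -0.08. For all of these but Sdha the null libraries lay apart: without null replicate 1 Uqcrc1 was at -0.23 and -0.19, Atp5b at -0.23 and -0.26, Atp5a1 at -0.19 and -0.28 and Ndufa10 at -0.29 and -0.35, and without null replicate 2 they were at 0.39 and 0.36, 0.22 and 0.34, 0.06 and 0.06, and 0.16 and 0.20.

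The change over all 4 libraries was ordered by the length of the coding sequence, taken as the longest annotated for each gene in GENCODE M21. Across the 79 members, Spearman's rank correlation of length with the null over WT change was 0.69 in neurons and 0.74 in progenitors, given as a description because the members share their 4 libraries. The 21 members tested under 300 bases had a median of -0.66 in neurons and -0.67 in progenitors, the 38 from 300 to under 600 bases -0.48 and -0.52, the 11 from 600 to under 1200 bases -0.37 and -0.38, and the 9 from 1200 to under 2400 bases -0.14 and -0.10. The same order was present in other genes. Among those with at least 50 CPM, medians over these bins were -0.43, -0.34, -0.16 and -0.01 in neurons and -0.43, -0.36, -0.17 and -0.02 in progenitors, and genes of 2400 bases or more were at 0.15 and 0.14. The rank correlation over all other genes was 0.45 (12191 genes) and 0.48 (12198 genes). Among the members the order differed between the null libraries. Without null replicate 2 the member medians over the bins were -0.57, -0.30, -0.07 and 0.06 in neurons and -0.62, -0.33, -0.06 and 0.06 in progenitors. Without null replicate 1 they were -0.66, -0.70, -0.65 and -0.23 and -0.68, -0.74, -0.68 and -0.28, where the lower bins were alike. In neurons, other genes with at least 50 CPM were at -0.29, -0.19, -0.05, 0.01 and 0.09 over the 5 bins without null replicate 2. Without null replicate 1 these genes were at -0.51, -0.50, -0.25, 0.02 and 0.23. In progenitors they were at -0.32, -0.20, -0.06, -0.01 and 0.08, and at -0.55, -0.55, -0.31, -0.01 and 0.20. Ndufv3, with a longest coding sequence of 1404 bases but also an annotated one of 258 bases, was at -0.71 and -0.69, and Atp5k, with 213 bases, at -0.25 and -0.21. For neurons over progenitors the order was weaker, with a rank correlation of 0.17 over the members and medians of -0.12, -0.10, -0.08 and 0.01 over the same bins. Other genes with at least 50 CPM were at -0.09, -0.16, -0.12, -0.05 and 0.11 over the 5 bins.

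**Figure D5:**
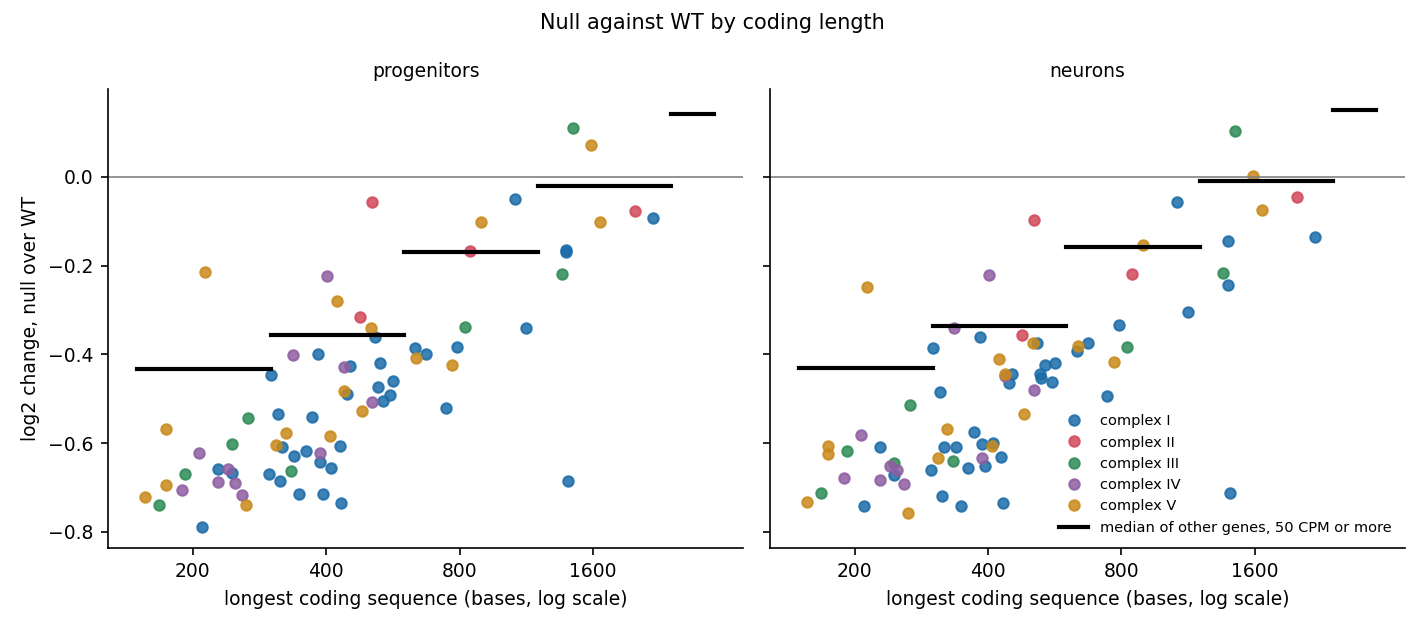
Log2 change of null over WT (vertical axis) against the longest coding sequence in bases (log scale) for members with at least 20 CPM, coloured by complex, in progenitors and neurons, with black lines for the median of other genes of each length bin. Members under 300 bases lay mostly near -0.67 and those over 1200 bases mostly near -0.1, and the lines of other genes climbed in the same way.

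Other lists are given by their medians. Those of null over WT in neurons and progenitors were -0.40 and -0.45 for the cytosolic ribosome, -0.33 and -0.32 for the mitochondrial ribosome, -0.24 and -0.26 for assembly factors, -0.28 and -0.20 for the carriers and -0.26 and -0.21 for antioxidant genes. Those of the citric acid cycle (-0.06 and -0.06), glycolysis (-0.06 and -0.01) and biogenesis regulators (0.06 and 0.10) lay near 0 over all 4 libraries, and no gene of any of these lists passed in either class. Without null replicate 1 the citric acid cycle was at -0.15 and -0.16, glycolysis at -0.14 and -0.15 and the regulators at 0.13 and 0.05. Without null replicate 2 the citric acid cycle was at 0.07 and 0.07, glycolysis at 0.06 and 0.10 and the regulators at 0.06 and 0.03. Without null replicate 2 the medians were -0.29 and -0.31 for the cytosolic ribosome, -0.14 and -0.14 for the mitochondrial ribosome, -0.15 and -0.17 for assembly factors, -0.02 and -0.0024 for the carriers and -0.08 and -0.07 for antioxidant genes. Without null replicate 1 they were, in the same order, -0.51 and -0.62, -0.53 and -0.59, -0.36 and -0.38, -0.48 and -0.50, and -0.44 and -0.38. The mitochondrially encoded subunits had medians of 0.17 and 0.13, with 0.25 and 0.24 without null replicate 1 and 0.17 and 0.09 without null replicate 2. In each class 12 of the 13 were higher in both null libraries on the CPM scale, as 42.7% and 48.4% of all genes were. In droplets with under 100 UMIs, which hold free RNA, members gave 2.77% and 3.01% of UMIs in the null libraries and 3.11% and 3.27% in WT. Null was below WT there as in cells, but null replicate 1 was the lower null library in these droplets and the higher in cells. Cells also differed in depth, with a median of 5936 and 8240 UMIs in null and 5500 and 5511 in WT neurons. After each cell was thinned to 3000 UMIs, 26 members in neurons (all genes, 0.845%) and 25 in progenitors (0.913%) were called lower. In G1 cells alone these were 6 (0.207%) and 26 (1.21%). The parts of coding length, free RNA, depth and the unequal numbers of barcodes left out by the mitochondrial cut in the genotype difference were not tested.

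Whether the class change differed between null and WT was tested as an interaction. No member passed in edgeR's quasi-likelihood test, against 1.2% of 14383 genes, and none passed in DESeq2, against 0.389%. In simulated counts, the edgeR test found 31.5% of genes given a log2 change of 1. In the other comparisons it found 84.5% to 100%. The spread of these counts was set alike for all genes and not taken from these data. The shares found are thus not those to be had with the real counts. The lack of calls does not show that the class change was alike in both genotypes. At an unadjusted p below 0.05, 1 member had the more positive class change in null (all genes, 6.67%) and none the more negative (2.2%). Ndufa12, for example, was at -0.47 in neurons and -0.49 in progenitors of null over WT (-0.30 in both without null replicate 2), and Cox6b2 at -0.50 and -0.70. By CPM, Cox6b2 in the neurons of null replicate 1 lay within the WT range, and its changes without each null library are not given here.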

How the data were processed

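For each of the 4 libraries the authors had run Cell Ranger on the reads (5.0.1 in the submitters' processing notes, 4 in the file headers; build GRCm38) and deposited raw UMI counts for 32285 genes and 6794880 barcodes, not normalized and not filtered for cells. Whether counting used strand is not given in the sources used here. The members overlap another gene on the same strand in 12 cases and on the other strand in 30. Members, lists and tests were chosen with earlier results of these data known.

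Cells needed at least 3000 UMIs, at most 10% mitochondrial UMIs and 200 genes. Scrublet (scanpy 1.11.5) called at most 0.0443% of cells at its own threshold, which was not used. In its place, 0.8% of cells per 1000 cells were removed by score (120 to 352 cells per library). Cells were clustered in Seurat 5.3.0 (R 4.3.3) on 2000 variable genes, from which the 2 members were removed, with 49 principal components and a resolution of 1.4. Each of the 25 clusters was put in a class by 8 markers of neurons and 11 of progenitors, and 91.9% of cells had the same class from markers alone. Erythroid, microglia and oligodendrocyte precursor clusters were left out of the comparisons.

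Counts were summed per library and class (12868317 to 27908083 UMIs). The main test was the two-sided quasi-likelihood test of edgeR 4.0.16, after filterByExpr and TMM scaling, with p-values adjusted over all genes by Benjamini and Hochberg, at an adjusted p of 0.05, with DESeq2 1.42.0 as an alternative. The scripts were tested on simulated data. The p-values of null against WT measure the spread between these libraries. Those of the class and interaction tests, with library as a term, measure how the class difference varied over the libraries. Replicate numbers were given in accession order. CPM values are scaled to the sum, not to gene length, while log2 changes are on the TMM scale and their SE is the change over the square root of F. Intervals are exact Clopper-Pearson at 95% and cover counting error only.

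Named were, per complex, the 2 members with the highest mean and up to 2 per direction with the largest called change and at least 20 CPM, all paralog families and complex II, and for genotype the 3 with the smallest p in each class; other members named were chosen after their values were seen. For other lists, up to 2 called genes per direction are named. Positions and coding lengths are from GENCODE M21 (GRCm38), where 99.8% of gene IDs were found. Sums and figures were made in Python 3.11.15 (pandas 2.3.3, numpy 2.4.6; matplotlib 3.10.9). Alternatives were other scalings, filters, tools, cell sets and left-out libraries.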

Additional observations from a re-analysis of the deposited data

How the results depend on the processing

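Counts of members called between neurons and progenitors were within 1.5 times of 56 under all alternatives run but 2: 33 in G1 cells alone (53.7% of all genes) and 7 without the library term (no replicate block; 64.0%). Leaving out a library gave 50 to 55 and medians of -0.11 to -0.09, and scaling by library totals moved the median to -0.035. In G1 cells the log2 changes of Uqcrh (-0.081), Cox4i1 (-0.048), Cox7a2l (-0.0020) and Cox6b1 (-0.0027) turned, and the cause was not tested.

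For null against WT in neurons, where 0 members passed, 20 passed with library totals (2.89% of all genes passed in either direction), 39 with DESeq2 (2.22%), 13 at a mitochondrial share of at most 5% (0.517%), 26 after thinning to 3000 UMIs (1.01%), 19 without pallial, LGE and CGE clusters (0.617%) and 6 in G1 cells (0.274%); leaving out a library gave 0 to 70, with medians of -0.66 to -0.30. In progenitors 11 passed with library totals (1.58%), 51 with no filter on low counts (4.53%), 41 with DESeq2 (2.48%), 25 after thinning (0.965%) and 26 in G1 cells (1.42%), and leaving out a library gave 0 to 73, with medians of -0.69 to -0.32. The medians with library totals were -0.34 in both classes. The member medians of both genotype comparisons were below 0 under every alternative run, and the interaction gave 0 members in each. The cause of these shifts was not tested. No paired analysis was possible between null and WT because the labels carry no replicate numbers. Leaving out clusters led by markers of the opposite class was planned, but no cluster met it, so that alternative gave no value. The alternatives in G1 cells and without borderline clusters were chosen after seeing the data. With 2 libraries per genotype, leaving out either null library changed the genotype calls, and without either WT library no member passed.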

Other observations

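Cells outside the neural classes were left out of the comparisons, and their shares are given as values. The erythroid cluster (153 cells, led by Hbb-bs and Hba-a1) had 0.406% and 0.480% of its UMIs from members in WT and 0.485% and 0.392% in null. Its level of Cox6b2, 74.9 CPM from 133 UMIs, was above that of every neuron and progenitor cluster, while Cox7a2l was at 33.8 CPM. The microglia cluster (96 cells) had 2.08% and 2.46% in WT and 2.10% and 2.08% in null. The pericyte gene Rgs5 was among the leading genes of this cluster. The oligodendrocyte precursor cluster (32 cells) had 2.82% and 2.96% in WT and 2.47% and 2.22% in null. These are sums over few cells, with no test.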
